A study of Mus musculus with 6 samples.

Results

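Transcription factors that can drive epithelial to mesenchymal transition (EMT), and vimentin, the filament protein that marks its outcome, were followed in cultured mouse breast cancer cells. The 10 genes, Vim, Zeb1, Zeb2, Snai1, Snai2, Twist1, Twist2, Prrx1, Tcf4 and Foxc2, were taken by name out of 35905 genes with transcripts in the tables, and all 10 were found. The lines compared derive from EO771, a mouse mammary tumour line: EO771-tdT-Parental and EO771-tdT-LM2, called Parental and LM2 below, each with 3 libraries. Both carry the label WT for genotype and the tdT tag in the name, and both were kept 48 h in RPMI 1640 with 10% serum until about 75% confluent. Parental titles also carry a tag, Ac6, that the labels do not explain. The labels give neither the derivation of LM2 nor the number of clones behind either line. Libraries held 33922699 to 45849019 estimated counts. The labels do not say whether the libraries of a line came from separate cultures, so p-values measure the spread between these libraries, which may be technical.

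EMT is a change of state in which epithelial cells lose their junctions and take on features of mesenchymal cells. The Zeb and Snail proteins are zinc finger repressors that bind E-boxes, short DNA motifs, in epithelial genes such as Cdh1, which encodes E-cadherin. The Twist proteins are basic helix-loop-helix factors that pair with E proteins such as Tcf4. Prrx1, a homeobox factor, and Foxc2, a forkhead factor, have each been linked to mesenchymal programs and metastasis. Vim encodes vimentin, a type III intermediate filament of mesenchymal cells.

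Vim and 4 of the factors, Zeb1, Zeb2, Snai1 and Tcf4, were modestly higher in LM2, Prrx1 was lower, and the Twist genes did not pass the test. Snai2 and Foxc2 were at or near the limit of detection in both lines. The largest of the rises was 1.23-fold, in Zeb1, and the fall of Prrx1 was 1.29-fold. Of the 8 members that passed the low-count filter, 5 were called higher and 1 lower in LM2 by edgeR's quasi-likelihood test at a Benjamini-Hochberg adjusted p below 0.05. Among all 13247 tested genes 31.4% were called higher, 31.1% lower and 62.4% in either direction. The share of members called in either direction was thus near that of genes at large. By direction, the members had a larger share called higher and a smaller share called lower, a split of 8 genes that was not tested. The 6 members called were also the 6 of 8 with an unadjusted p under 0.05, which 65.3% of all tested genes had. The median log2 fold change of the tested members was 0.17, against 0.00 for all tested genes. The median absolute log2 fold change of all tested genes was 0.24, and 42.4% of them changed by more than Zeb1.

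Levels of different genes are compared in TPM, a unit per total transcripts, which corrects for transcript length. Vim stood at 3686 ± 49.0 TPM in Parental and 4718 ± 53.6 TPM in LM2 (SD, n = 3 each) and ranked 16 among all genes by mean TPM. The factors lay far lower and close together, from 9.49 TPM for Prrx1 to 54.4 TPM for Twist2 in Parental. In Parental the order of levels was Vim, Twist2, Tcf4, Snai1, Twist1, Zeb2, Zeb1, Prrx1, Snai2 and Foxc2. Only Tcf4 and Snai1 overlapped as neighbours in that order, at 48.3 ± 2.54 and 47.2 ± 1.85 TPM. In LM2 Tcf4 stood above Twist2, at 61.3 ± 6.47 and 57.7 ± 1.08 TPM, and this pair overlapped, while the other places were the same and separate from one another down to Foxc2.

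**Figure D1:**
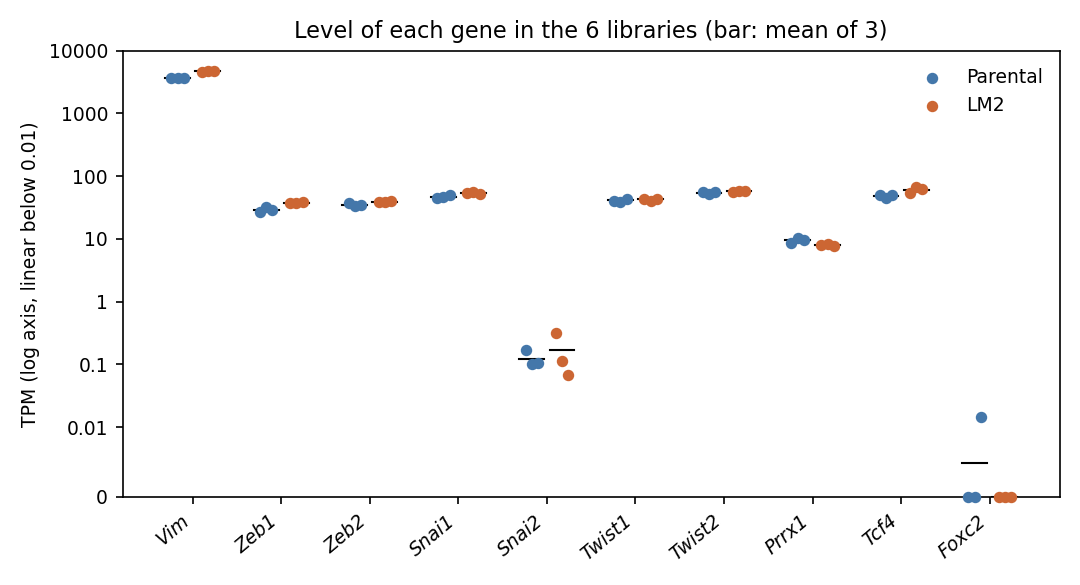
TPM of each of the 10 genes (axis logarithmic, linear below 0.01) in the 3 Parental and 3 LM2 libraries, with a bar at each mean. Vim lies far above the rest, the other 7 tested genes form a band with Prrx1 lowest, and Snai2 and Foxc2 lie below 1 TPM in every library.

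Differences between the lines were tested on rounded gene counts, with library totals adjusted by TMM factors. Values are given in CPM, counts per adjusted library total on a fixed scale. Vim was at 3919, 3949.6 and 3832 CPM in the Parental libraries and at 4849.5, 4777 and 4700.1 CPM in the LM2 libraries. All 3 LM2 libraries were above all 3 Parental libraries. The fold change was 1.22 (95% interval 1.19 to 1.26, edgeR adjusted p = 3.60e-11). Of the 6 Vim transcripts in the tables, Vim-201 led, with 49.4%, 52.4% and 49.9% in Parental and 49.2%, 48.2% and 46.0% in LM2. Vim transcripts annotated as retained introns held 23.6%, 21.2% and 24.8% in Parental and 24.2%, 24.6% and 28.2% in LM2, so the lines overlapped in that share.

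The ZEB pair rose together in direction, with different sizes. Zeb1 was at 76.5, 78.5 and 76.6 CPM in Parental and at 92.2, 94.999 and 97.8 CPM in LM2. Its 1.23-fold rise (95% interval 1.18 to 1.29, edgeR adjusted p = 2.50e-08) separated the lines fully. Zeb2 was at 92.7, 85.0 and 85.5 CPM in Parental and at 99.9, 99.0 and 97.9 CPM in LM2. It rose 1.13-fold (95% interval 1.07 to 1.18, edgeR adjusted p = 0.000123), and its lowest LM2 library lay above its highest Parental library. Transcripts annotated as protein-coding held 63.0% to 73.2% of Zeb1 TPM and 80.2% to 91.4% of Zeb2 TPM over the 6 libraries. With noncoding transcripts included, Zeb1 made up 42.0%, 49.1% and 45.2% of the summed TPM of the pair in Parental and 49.3%, 49.3% and 48.4% in LM2. One Parental library thus lay near the LM2 values, and by TPM the balance of the pair overlapped between the lines (difference in log2 ratio 0.21, exact permutation p = 0.2 two-sided, adjusted over 3 pairs 0.6, smallest possible 0.1). As that smallest value is above 0.05, the test cannot decide whether the balance differed.

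Snai1 carried nearly all Snail family RNA. Snai1 was at 44.1, 44.9 and 47.7 CPM in Parental and at 52.0, 51.8 and 49.4 CPM in LM2. The LM2 libraries were all higher, by 1.12-fold (95% interval 1.06 to 1.19, edgeR adjusted p = 0.00116). Snai2, which encodes Slug, had 9, 5 and 5 counts in the Parental libraries and 14, 5 and 3 in the LM2 libraries. These overlap, and at sums of 19 and 22 counts Snai2 did not pass the low-count filter and was not tested. Snai1 held at least 99.4% of the summed TPM of Snai1 and Snai2 in every library.

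The Twist genes, which were expressed in both lines, had the smallest fold changes. Twist1 was at 39.5, 38.4 and 41.7 CPM in Parental and at 41.9, 38.6 and 41.5 CPM in LM2, with the libraries of the lines interleaved. Its fold change of 1.02 had a 95% interval of 0.955 to 1.09 (edgeR adjusted p = 0.598). Twist2 was at 42.4, 40.3 and 42.7 CPM in Parental and at 43.0, 43.0 and 44.0 CPM in LM2. The Twist2 libraries did not overlap, yet the fold change of 1.04 had a 95% interval of 0.977 to 1.10 and did not pass (edgeR adjusted p = 0.284). Counting Twist2, the libraries of the lines did not overlap for 7 of the 8 tested members, against 67.0% of all tested genes.

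Twist1 held 42.5%, 43.0% and 43.7% of the summed Twist TPM in Parental and 43.6%, 41.5% and 42.7% in LM2, which overlap (exact permutation p = 0.6, adjusted 0.9). Of the 31-base words of Twist2, 46.0% also occur in 1 other annotated gene, whose transcripts are not among those of the tables used here. For each other member at most 3.11% of the words occur elsewhere.

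Tcf4 encodes an E protein, a partner of the Twist factors. It was at 104, 106 and 107 CPM in Parental and at 116, 125 and 126 CPM in LM2, with no overlap. The rise was 1.16-fold (95% interval 1.11 to 1.21, edgeR adjusted p = 5.10e-06). In TPM the ratio of the line means was 1.27. The Tcf4 transcript with the largest mean share of TPM, Tcf4-225 with 959 bases, held 30.3%, 30.5% and 31.3% of Tcf4 TPM in Parental and 31.9%, 37.5% and 32.3% in LM2. By estimated counts Tcf4-202, with 7147 bases, led with 60.4% to 63.7% in Parental and 56.2% to 62.9% in LM2. Tcf4-225 held 6.68% to 10.1% of the counts over the 6 libraries. Of the 62 Tcf4 transcripts 30 reached 3 counts, and the tables give no error for the split of reads among them.

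**Figure D2:**
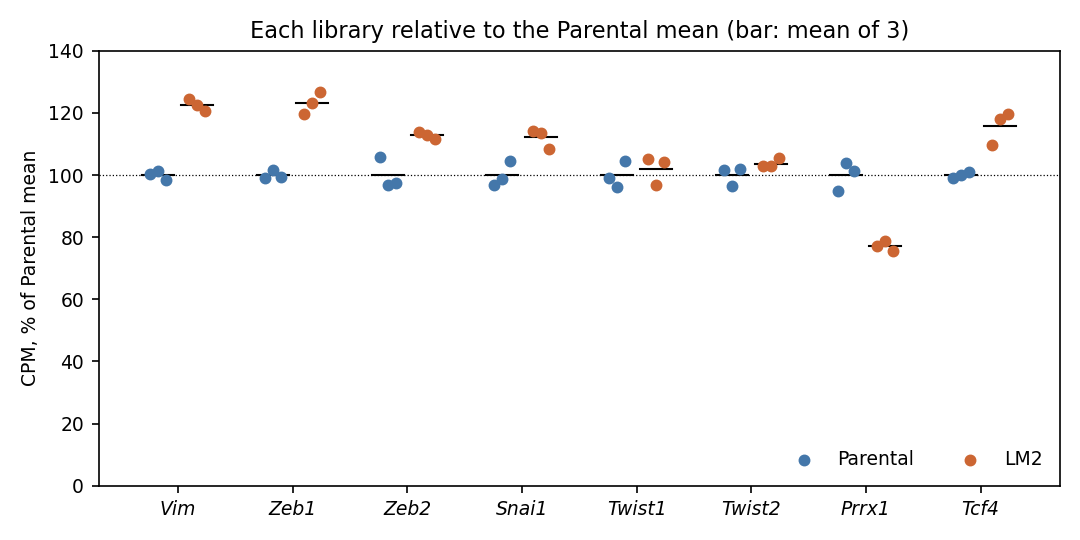
CPM of the 8 tested genes in each library as a percentage of the Parental mean of that gene, on a linear axis from 0, with bars at the means. The LM2 libraries of Vim lie at 121% to 124% and those of Zeb1 at 119% to 127%, those of Twist1 straddle the Parental mean, and those of Prrx1 lie at 75.7% to 78.8%.

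Prrx1 was the one member that fell. It was at 24.0, 26.3 and 25.6 CPM in Parental and at 19.5, 19.95 and 19.2 CPM in LM2. Every LM2 library was below every Parental library, and the fold change was 0.773 (95% interval 0.715 to 0.835, edgeR adjusted p = 2.94e-06). The estimated share of its leading transcript also did not overlap between the lines, as was so for 5 of the 6 members with several transcripts. How often this occurs among all genes with several transcripts was not computed, so nothing is read from that count.

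The transcripts Prrx1-201 and Prrx1-202 differ inside the gene by an exon of 72 bases, which Prrx1-202 includes and Prrx1-201 skips. The noncoding Prrx1-205 includes it too. The exon is number 4 of 5 in Prrx1-202 and lies at chr1:163253977-163254048 on the minus strand of build GRCm38 in GENCODE M21. It is shown because it separates Prrx1-201 and Prrx1-202, coding transcripts whose values follow. It holds 52 coding bases followed by the stop codon, in capitals, and then untranslated sequence, so that Prrx1-202 codes for a shorter protein (651 coding bases) than Prrx1-201 (735 coding bases).
Prrx1-202 exon: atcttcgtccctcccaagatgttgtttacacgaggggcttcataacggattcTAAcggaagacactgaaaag

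Prrx1-202, which holds this exon, led in Parental with 50.008%, 47.5% and 51.6% of Prrx1 TPM, and had 37.5%, 39.3% and 26.5% in LM2. The LM2 libraries were all lower, by 15.3 percentage points on average, and LM2 replicate 3 was lowest. With 3 libraries a line the exact permutation p cannot go below 0.1, which is its value here (0.12 adjusted over the 6 members with several transcripts). Prrx1-201, which skips the exon, had 1.44, 1.29 and 1.31 TPM in Parental and 1.30, 1.46 and 2.30 TPM in LM2. Prrx1-202 had 4.25, 4.95 and 4.92 TPM and then 2.96, 3.27 and 2.01 TPM. Prrx1-202 was thus lower in each LM2 library, while Prrx1-201 overlapped between the lines. Prrx1-205 overlapped too, with 1.89, 3.44 and 2.54 TPM in Parental and 2.79, 2.96 and 2.44 TPM in LM2. Another coding transcript, Prrx1-204, held 10.9%, 7.17% and 7.85% of Prrx1 TPM in Parental and 10.8%, 7.64% and 11.1% in LM2. It is not part of the ratio of Prrx1-201 and Prrx1-202 given below. Taken over both transcripts that hold the exon, the share of Prrx1 TPM was 72.2%, 80.4% and 78.1% in Parental and 72.8%, 74.8% and 58.6% in LM2, which overlaps. Prrx1-202 made up 74.8%, 79.3% and 79.0% of Prrx1-201 and Prrx1-202 in Parental and 69.5%, 69.1% and 46.7% in LM2, a ratio that, like the share with the exon, was chosen after values were seen and is given without a test. Estimated counts a library were 246 to 651 for Prrx1-202 and 145 to 279 for Prrx1-201, and the tables hold no error for that split. Without LM2 replicate 3 the Prrx1-202 share differed by -11.3 points.

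**Figure D3:**
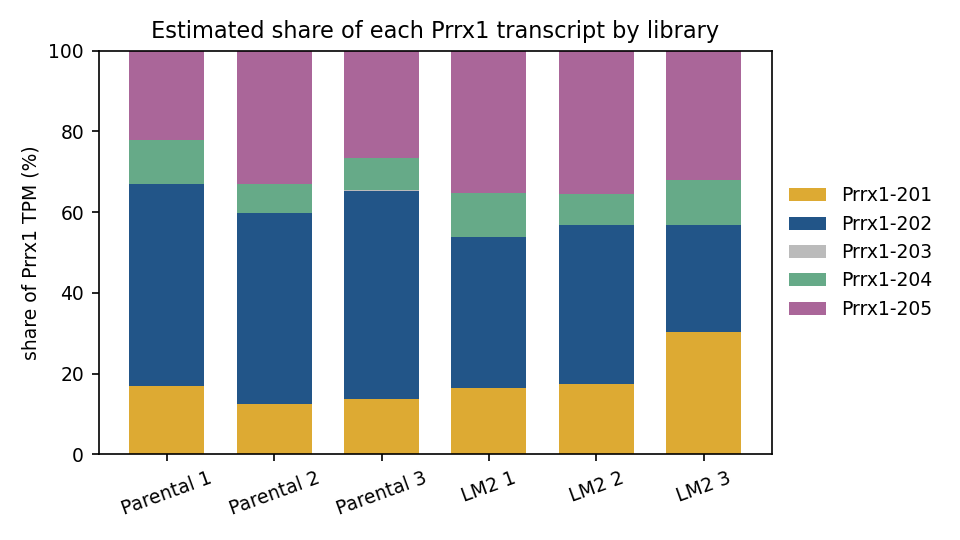
Share of Prrx1 TPM in percent (stacked bars from 0 to 100) of the 5 annotated Prrx1 transcripts in each library. The blue segment, Prrx1-202, spans 47.5% to 51.6% in Parental and 26.5% to 39.3% in LM2.

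Line means of the other leading transcripts were at most 4.76 percentage points apart. Zeb2-214 held 35.8%, 32.3% and 30.8% of Zeb2 TPM in Parental and 37.3%, 36.0% and 39.8% in LM2. Zeb1-201 held 64.6%, 53.8% and 61.8% in Parental and 54.4%, 57.6% and 58.7% in LM2. The Zeb2-214 libraries did not overlap and those of Zeb1-201 did. All 5 leading transcripts without overlap, in Prrx1, Tcf4, Twist2, Vim and Zeb2, had the smallest exact permutation p that 3 against 3 allows, so this test cannot rank them or call any.

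Foxc2 had 1 count in Parental replicate 3 and 0 in the other 5 libraries. A count of 0 allows up to 3 counts, or 0.0659 to 0.0890 CPM depending on the library, and this covers counting error only. No difference in Foxc2 was detectable at this depth. Gm20388, an annotated gene that overlaps Foxc2 on the same strand, averaged 4.77 CPM in Parental against 6.15 in LM2.

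**Figure D4:**
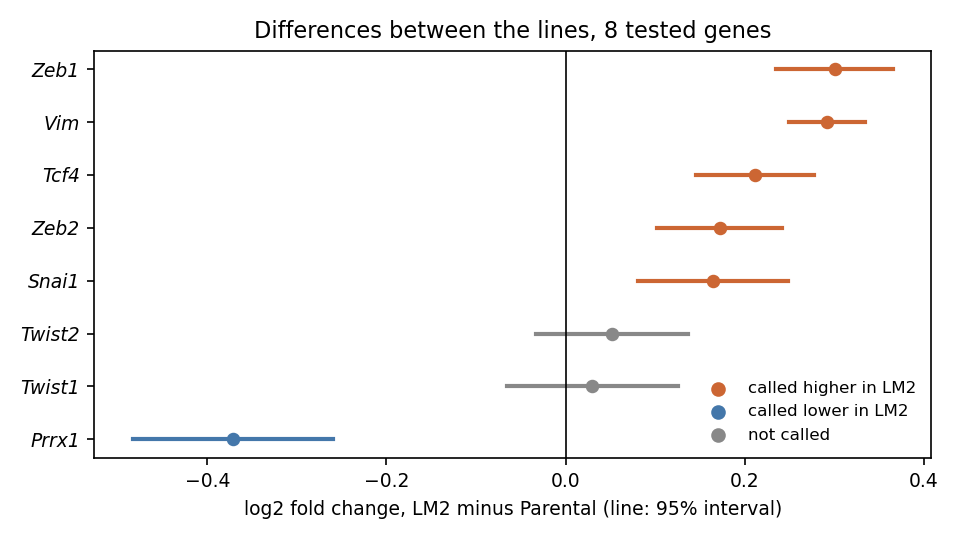
Fold change of each tested member on the log2 scale, LM2 minus Parental, with its 95% interval, coloured by the edgeR call. The 5 genes called higher lie between 0.16 and 0.30, Prrx1 lies at -0.37, and the intervals of both Twist genes include 0.

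The members sit on several chromosomes, and the median difference between the lines varied by chromosome. Median log2 fold changes of the tested genes on each chromosome were 0.00 for chromosome 2 (Vim, Zeb2, Snai1), 0.06 for chromosome 1 (Twist2, Prrx1), -0.06 for chromosome 18 (Zeb1, Tcf4), -0.19 for chromosome 12 (Twist1) and -0.31 for chromosome 8 (Foxc2). Zeb1 and Tcf4 thus rose on a chromosome whose median was slightly below 0, and Prrx1 fell on one slightly above. The 20 nearest tested neighbours of Prrx1 had a median of 0.01. Such medians were 0.15 for Twist2 and 0.08 for Snai1. They were -0.04 for Vim, -0.05 for Zeb2, -0.07 for Zeb1 (19 neighbours), -0.08 for Twist1 and -0.16 for Tcf4. Whether position had a part in the differences was not tested.

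The authors' deposited table of log2 fold changes lists 8 of the members. In the authors' deposited table Vim and Zeb1 are at 0.33, Tcf4 at 0.20, Snai1 at 0.17, Zeb2 at 0.14, Twist2 at 0.06, Twist1 at 0.03 and Prrx1 at -0.28. The values computed here had the same sign for each of these genes, and the widest gap was 0.09, for Prrx1. The deposited values came without log base or direction, which were read from their closeness to the values computed here. Both sets also rest on the same libraries, so the equal signs are not an independent check.

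Known epithelial targets of the factors were often at low levels. Of 31 such genes in the annotation 19 were under 1 CPM and 17 were tested, of which 12 rose, 3 fell and 2 did not pass. Among all tested genes 31.4% were called higher and 31.1% lower. The count leans on genes that passed the low-count filter through LM2, where they are high: besides Epcam, Ovol1 was at 0.0496 and 2.15, Dsp at 0.0578 and 0.471 and Patj at 0.222 and 0.467 CPM. Other targets as low in Parental went untested. With a minimum of 1 CPM in 3 libraries 9 were called higher and 2 lower. Cdh1 averaged 0.187 ± 0.0559 CPM in Parental against 0.0938 ± 0.0318 in LM2 (SD, n = 3 each), too low to be tested. The mesenchymal cadherin gene Cdh2 was also too low to be tested, at 0.00733 and 0.00873 CPM. The keratin Krt8 was abundant and rose from 420 to 568 CPM (1.35-fold), and the adhesion molecule Epcam rose from 0.154 to 14.97 CPM. The junction protein Jup fell 1.37-fold from 69.2 to 50.4 CPM, and Tjp1, a tight junction scaffold, at 291 and 284 CPM did not pass, though it was called lower without LM2 replicate 3 (edgeR adjusted p = 0.00591).

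The CACCTG E-box, the form bound by Zeb and Snail proteins, was searched with its reverse complement CAGGTG in windows from 250 bases before to 50 after annotated starts (RefSeq, build GRCm38.p6). At least 1 match was present in 19 of 26 windows of the 19 epithelial genes found in that table (73.1%), against 20.2% of all 32851 windows. Windows of a gene can overlap and share a match, as in Crb3 and Marveld2. By gene, 15 of 19 had a match (78.9%), against 22.6% of all 27025 genes with a window. Cdh1 had no window there. The comparison is a description of genes chosen as known targets, not a count of bound sites. Of the 6 members with a window, Snai1 alone had a match.

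The 250 bases before the start follow, with matches in capitals, for Snai1 and, as examples of epithelial targets with matches, for 3 genes picked after their values were seen. Snai1 lies at chr2:167537945-167538194 (plus strand), Epcam at chr17:87635729-87635978 (plus strand), Krt8 at chr15:102004343-102004592 (minus strand) and the first window of Crb3, a polarity gene, at chr17:57061951-57062200 (plus strand).
Snai1: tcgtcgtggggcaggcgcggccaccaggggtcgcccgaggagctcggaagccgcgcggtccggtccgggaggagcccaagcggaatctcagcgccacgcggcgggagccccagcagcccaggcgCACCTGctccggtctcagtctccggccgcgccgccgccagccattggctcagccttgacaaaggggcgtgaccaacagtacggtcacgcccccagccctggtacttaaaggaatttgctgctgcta
Epcam: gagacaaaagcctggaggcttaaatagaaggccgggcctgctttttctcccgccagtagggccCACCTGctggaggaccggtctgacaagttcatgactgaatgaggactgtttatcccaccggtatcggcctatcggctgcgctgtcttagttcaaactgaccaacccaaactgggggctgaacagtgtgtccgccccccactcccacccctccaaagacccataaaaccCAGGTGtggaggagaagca
Krt8: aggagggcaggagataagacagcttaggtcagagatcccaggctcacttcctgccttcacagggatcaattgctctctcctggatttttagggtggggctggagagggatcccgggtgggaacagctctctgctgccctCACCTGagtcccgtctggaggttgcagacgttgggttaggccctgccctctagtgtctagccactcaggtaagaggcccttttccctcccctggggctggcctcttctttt
Crb3: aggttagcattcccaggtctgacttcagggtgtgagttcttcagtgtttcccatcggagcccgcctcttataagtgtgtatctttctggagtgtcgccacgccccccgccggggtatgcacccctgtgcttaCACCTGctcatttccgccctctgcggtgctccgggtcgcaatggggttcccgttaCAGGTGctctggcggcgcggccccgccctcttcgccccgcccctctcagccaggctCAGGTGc

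The Snai1 match begins 126 bases before the start, that of Krt8 111 bases before it, and those of Epcam 187 and 19 bases before it. Crb3 had 3 matches in the stretch shown and had 0 counts in all 6 libraries. These genes were chosen with their levels known, so nothing is read from matches beside levels.

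Of 17 tested mesenchymal genes linked to the factors, 12 rose, 3 fell and 2 did not pass, with a median log2 fold change of 0.46. The shares of all tested genes to set beside this list and the next 3 are 31.4% higher and 31.1% lower, with a median of 0.00. The smooth muscle actin Acta2 rose from 39.5 to 473 CPM and the actin-binding Tagln from 1.41 to 6.56 CPM. S100a4 fell from 329 to 158 CPM and the matrix protein Tnc from 6.85 to 4.99 CPM. Pdgfrb, a growth factor receptor, at 49.1 and 47.9 CPM did not pass.

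Proteins that anchor vimentin and other filaments formed the next group. Of 16 tested genes 9 rose, 4 fell and 3 did not pass (median log2 fold change 0.20). The filament protein Synm rose 3.67-fold from 8.67 to 31.8 CPM, and the adhesion protein Vcl 1.57-fold from 193 to 303 CPM. Syne3, which links the nucleus to filaments, fell 1.30-fold, and Plk1, a mitotic kinase that acts on vimentin, fell 1.29-fold. Syne2, at 149 and 203 CPM, did not pass by edgeR (adjusted p = 0.0518).

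Co-factors and antagonists of the factors went both ways, with 5 of 21 tested genes higher, 7 lower and 9 not passing (median -0.05). Kdm1a, a histone demethylase recruited by Snai1, rose 1.38-fold from 139 to 192 CPM, and Ajuba, a Snail co-repressor, rose 1.30-fold. Ezh2 of the Polycomb complex fell 1.56-fold from 154 to 98.8 CPM and the deacetylase Hdac2 1.41-fold. Chd4, at 629.9 and 608 CPM, did not pass, though it was called lower without LM2 replicate 2 (edgeR adjusted p = 0.0156). None of the 3 tested Id genes, whose products sequester E proteins, passed, with Id1 at 102 and 91.3, Id2 at 23.2 and 29.4 and Id3 at 100.4 and 100.3 CPM.

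Genes that act on the stability of the Snail, Twist and Zeb proteins were also mixed, with 11 of 25 tested higher, 8 lower and 6 not passing (median 0.05). The ubiquitin ligase subunit Fbxw7 rose 1.63-fold from 27.2 to 44.3 CPM and the kinase Mapk3 1.27-fold. The kinase Pak1 fell 1.57-fold from 50.3 to 32.0 CPM and the ligase Siah1a 1.27-fold. Protein levels were not measured here.

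**Figure D5:**
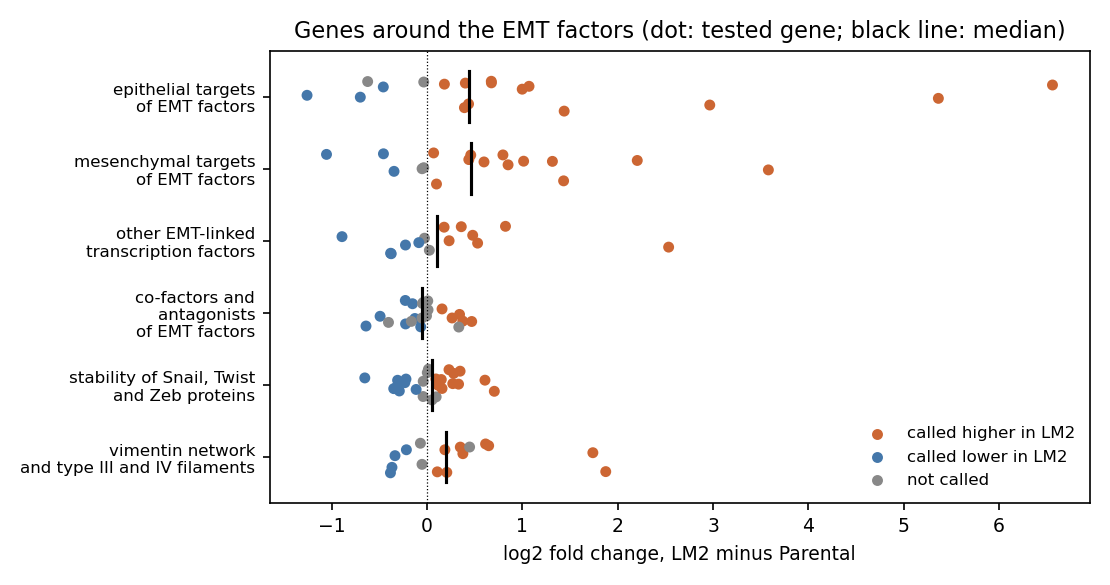
Log2 fold change, LM2 minus Parental, of each tested gene in 6 lists around the factors, with a black line at the list median and colours for the edgeR call. The epithelial list spreads widest, and the lists of co-factors and of protein stability have medians of -0.05 and 0.05.

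Markers of other cell types were low, with exceptions. Leukocyte markers summed to 2.01 to 2.31 CPM in Parental and 5.76 to 6.84 CPM in LM2 over 7 genes, of which 2 averaged at least 1 CPM, with Cd68 at 1.75 and 2.68 CPM, Cd79a at 0.113 and 3.21 CPM, Ptprc under 0.1 CPM and Adgre1 at 0 counts. Endothelial markers summed to 3.47 to 4.33 and 4.24 to 4.83 CPM over 5 genes, led by Pecam1 at 3.49 and 3.59 CPM. The adipocyte markers stayed under 0.5 CPM in sum, led by Plin1 at 0.251 and 0.170 CPM. Fibroblast markers summed to 127 to 130 and 173 to 195 CPM over 5 genes, nearly all from Pdgfra at 126 and 181 CPM, while Dcn and Lum stayed under 0.1 CPM. Of 7 epithelial markers Krt8, Krt14 and Epcam averaged at least 1 CPM, their sum was 416 to 428 and 584 to 603 CPM over the 7, and Krt18, the usual partner of Krt8, was at 0.0449 and 0.125 CPM. The part of these differences in the values above was not tested, and fewer cells of a type cannot be told apart from less RNA per cell.

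Likeness to the members was measured over the 6 libraries as the distance between log2 CPM values centred on each gene's mean, among 8833 other genes of at least 10 CPM. Closest to Vim were Usp1, a deubiquitinase, Rap1a, a small GTPase, and Nt5e, the ectonucleotidase CD73, at distances of 0.0153, 0.0180 and 0.0203. Closest to Prrx1 were Rpap3, the calcium channel gene Itpr2 and A630001G21Rik, at 0.0472, 0.0513 and 0.0559.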

How the data were processed

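RNA sequencing libraries of the 3 Parental and 3 LM2 samples were grouped and numbered by their titles. The authors deposited estimated counts and TPM per transcript, with lengths in bases, made with kallisto 0.46.2 on build GRCm39 per the submitters' processing notes. Their log2 fold changes per gene were deposited without log base or direction, which were read from their closeness to the values computed here (Pearson r = 0.957 across 10531 genes). The sources used here do not name strand or transcript set. Library totals were 33922699 to 45849019 estimated counts.

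Transcripts were assigned to genes with GENCODE M21 (99.1% matched), summed and rounded. edgeR 4.0.16 in R 4.3.3 (filterByExpr, TMM, robust quasi-likelihood fit, no covariate) tested 13247 genes. Standard errors were derived from fold change and F. Ratios of the paralog pairs and shares of the leading transcripts had exact permutation tests, and other shares and ratios of TPM had none. The code was tested on simulated data. DESeq2 1.42.0, limma 3.58.1 (voom), other factors, filters, a length offset, a replicate block and leaving out each library were alternatives. The main fit did not pair libraries by replicate number. Named genes were all members and, per list, the 2 largest called rises and falls of at least 5 CPM and the most abundant gene not called (1 gene under this rule is not reported here), plus the top marker of each cell type. Other named genes (Cdh1, Cdh2, Ovol1, Dsp, Patj, Fn1, the Id genes, Crb3, markers beyond the top one of a type and those under the closing observations) were chosen after their values were seen. Members and lists were chosen with earlier results of these data known.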

Additional observations from a re-analysis of the deposited data

How the results depend on the processing

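The 5 calls upward and 1 downward among the members held in count under all 14 other fits: other scaling factors, tools and filters, the length offset, the replicate block and the libraries left out 1 at a time. Prrx1 ranged from -0.41 to -0.29, Zeb1 from 0.28 to 0.34, Vim from 0.27 to 0.32, Tcf4 from 0.18 to 0.31, Zeb2 from 0.13 to 0.21 and Snai1 from 0.14 to 0.20 on the log2 scale. Twist1 ranged from 0.00 to 0.06 and Twist2 from 0.02 to 0.06, neither called. With the replicate block 5 members were called higher and 1 lower, as without it. Same-numbered libraries had correlations of deviations of -0.08, 0.05 and 0.01, within the range of -0.09 to 0.07 for libraries with different numbers. These values showed no pairing by number but cannot tell whether same-numbered libraries were prepared together. The log2 ratio of Snai1 to Snai2 differed by 0.01 between the lines and turned with the library left out (range -0.46 to 0.63), as did that of Twist1 to Twist2 (-0.03, range -0.0548 to 0.00635). Of the genes that did not pass, Tjp1 ranged from -0.107 to 0.0217 and Pdgfrb from -0.0791 to 0.00519 with a library left out. Tjp1 passed as lower without LM2 replicate 3 (adjusted p = 0.00591), and Chd4 without a filter (0.0113) and without LM2 replicate 2 (0.0156). Syne2 passed with DESeq2 (adjusted p = 0.00457), with limma voom (0.000598), with a minimum of 1 CPM (0.0445), with the length offset (0.000107) and without LM2 replicate 1 (0.0493). Low counts limit what can be said of Snai2 and Foxc2.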

Other observations

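Relatives of the members outside the set did not follow them in every case. Prrx2, the paralog of Prrx1, rose from 0.422 ± 0.0846 to 2.44 ± 0.327 CPM (SD, n = 3 each, edgeR adjusted p = 1.99e-08) while Prrx1 fell, and by TPM Prrx2 went from 0.753 to 3.67 against 9.49 to 7.94 for Prrx1. Foxc1, the paralog of the undetected Foxc2, was well expressed and rose 1.39-fold from 34.6 to 48.1 CPM. Snai3 was at 0.0880 and 0.0285 CPM and was not tested. Of the E proteins, Tcf3 fell 1.30-fold from 282 to 218 CPM, Tcf12 at 124 and 122 CPM did not pass, and Tcf4 rose. By TPM Tcf3 was at 166 and 129, Tcf12 at 50.9 and 49.5 and Tcf4 at 48.3 and 61.3. By these line means Tcf4 was the lowest of the 3 in Parental and above Tcf12 in LM2. The Tcf4 libraries spanned 45.4 to 50.1 TPM in Parental and 54.7 to 67.6 TPM in LM2. Overlap with the Tcf12 libraries was not examined, and Tcf4 TPM depends on a split among transcripts given without error.

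Among 14 other tested factors linked to EMT 7 rose, 5 fell and 2 did not pass (median log2 fold change 0.10), against 31.4% higher and 31.1% lower among all tested genes. Runx1 rose 1.77-fold from 87.7 to 155 CPM and Nfatc1 1.45-fold, while Tbx3 fell 1.85-fold from 136 to 73.6 CPM and Hmga2 1.30-fold from 100.8 to 77.5 CPM.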
